A study of Gallus gallus with 6 samples.

Results

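The genes described are COL1A2, COL5A1, COL6A3, LUM, FBN1, FSTL1 and PRRX1, a set of 7 genes of collagen fibres, stromal matrix and mesenchyme. Every region that the deposited tables assign to one of these symbols was taken, the symbol being that of the gene whose start the authors found closest. This gave 19 entries among 15464, which are 5 of 4801 distinct regions for ESC against PGC, 7 of 5840 for ESC against SSC and 7 of 4823 for PGC against SSC. The 19 entries have 14 distinct pairs of coordinates, and regions that overlap between tables merge into 12 places. The genes were chosen as a group with earlier results of these data known, so their counts and medians are descriptions.

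The data are chromatin immunoprecipitation sequencing (ChIP-seq) of methylated lysine 4 of histone H3 (H3K4) in chicken cells. Embryonic stem cells (ESC) came from the embryo disk at stage X and were kept for 24 h in serum medium with LIF, bFGF and SCF. Primordial germ cells (PGC) were isolated from the genital ridge, at 4.5 d of incubation in the protocol and 72 h (stage 27) in the stage label. Spermatogonial stem cells (SSC) came from testes, at 18.5 d in the protocol and 18 d in the stage label. PGC and SSC were held in serum medium, and no further treatment, strain or genotype is named. The labels describe no sorting step and do not say how many embryos were pooled. The antibody recognises both the di- and the trimethylated form of H3K4. For each population 1 library was sequenced from immunoprecipitated (IP) DNA and 1 from input DNA, so no difference has a replicate check. Every interval below is a 95% interval that covers counting error only.

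H3K4 methylation marks promoters and enhancers, with the trimethylated form at active starts and the dimethylated form spread over starts and distal elements. Connective tissue cells build their matrix from collagen fibres and microfibrils. COL1A2 encodes a chain of collagen I, the main fibre of connective tissue, and COL5A1 a chain of collagen V, which controls how those fibres assemble. COL6A3 encodes a chain of collagen VI, a beaded filament around cells. FBN1 encodes fibrillin-1 of the microfibrils, and LUM encodes lumican, a small proteoglycan that binds collagen fibres. FSTL1 is a secreted glycoprotein that modulates BMP signalling, and PRRX1 is a homeobox transcription factor of embryonic mesenchyme. In mouse and human these genes are widely used as markers of fibroblasts and stromal cells, including those of the gonad.

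Library totals, recovered from the deposited values, ran from 19.15 megareads (SSC IP) to 26.03 megareads (ESC IP). Only regions called as a peak in at least 1 population of a pair are listed, and the lowest enrichment in any table was 1.002, so a region at or below 1 in either population is missing. A call rests on the same IP reads as the ratios, so an interval that excludes 0 is not separate support for the called population. At the member regions IP libraries had median counts of 8 to 16 reads and inputs of 4 to 8. The counting standard error of their log2 ratios ran from 0.87 to 1.34. Of the labelled populations' own markers, no listed region carried the symbols NANOG, POU5F3 or SOX2 of pluripotent cells, or DDX4 or DAZL of germ cells. Near their starts the pluripotency genes KLF5 and MYCN were called in ESC. KLF5 had a log2 ratio of 3.29 (1.83 to 4.76) for ESC over PGC and 2.17 (0.67 to 3.67) for ESC over SSC. MYCN had 2.74 (2.08 to 3.41) and 1.71 (1.05 to 2.38) in the same order. At other regions, for PGC against SSC, KLF5 was called in PGC and MYCN in SSC, with intervals that included 0. LIN28B, also called in ESC, had a log2 ratio of ESC over SSC of -0.30 (-2.96 to 2.37). Some germ cell markers were called in ESC as well: TFAP2C, with log2 ratios of 3.46 (2.66 to 4.26) over PGC and 3.20 (2.25 to 4.15) over SSC, ITGB1 and TDRD7. ITGB1 had a log2 ratio of ESC over SSC of -1.16 (-4.50 to 2.19), with 0 input reads in SSC. With 3 reads in place of the 1 added to that input it was 0.43. ESC over PGC gave 1.60 (-1.04 to 4.24) at ITGB1. TDRD7 had 2.38 (-1.36 to 6.12) for ESC over SSC, with 0 input reads in ESC, and 0.80 with 3 reads there. CXCR4 was called in SSC, with -1.40 (-3.39 to 0.60) for ESC against SSC and -1.61 (-3.50 to 0.27) for PGC against SSC. At another region, for PGC against SSC, TDRD7 was called in SSC, although its enrichment was higher in PGC. The values were 4.32 in PGC, with 1 input read, and 2.30 in SSC, a log2 ratio of 0.91 (-1.71 to 3.54).

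Of the 12 places, 2 were called as peaks in ESC, 5 in PGC and 6 in SSC, and 1 of them, in COL1A2, was called in both PGC and SSC. For ESC against PGC, 2 of 5 member regions were called in ESC only and 3 in PGC only, beside 57.4% and 42.2% of all regions. For ESC against SSC, 2 of 7 were called in ESC only and 5 in SSC only, beside 54.9% and 38.3%. For PGC against SSC, 3 of 7 were called in PGC only and 3 in SSC only, beside 47.3% and 52.4%. The 1 called in both stood beside 0.35%. Lumican and FSTL1 reached the highest enrichment over input, 8.66 in SSC at both genes. The places called in ESC were the start of FSTL1 and a site upstream of FBN1. Over the 12 places, 2 ran from the start into the first intron, 5 lay inside the first intron, 2 lay farther inside the gene and 3 lay upstream. In ESC against PGC, 3 of 5 member regions had their centre in the first intron, compared with 27.6% of all regions. The counts were 4 of 7 beside 33.2% for ESC against SSC and 4 of 7 beside 15.4% for PGC against SSC. In both comparisons these 4 regions all belonged to COL1A2 and FSTL1. Within 1 kb of the start lay 1 of 5, 2 of 7 and 1 of 7 member regions in the same order, beside 39.4%, 47.0% and 11.3% of all regions. The member regions were between 202 and 439 bp wide.

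**Figure D1:**
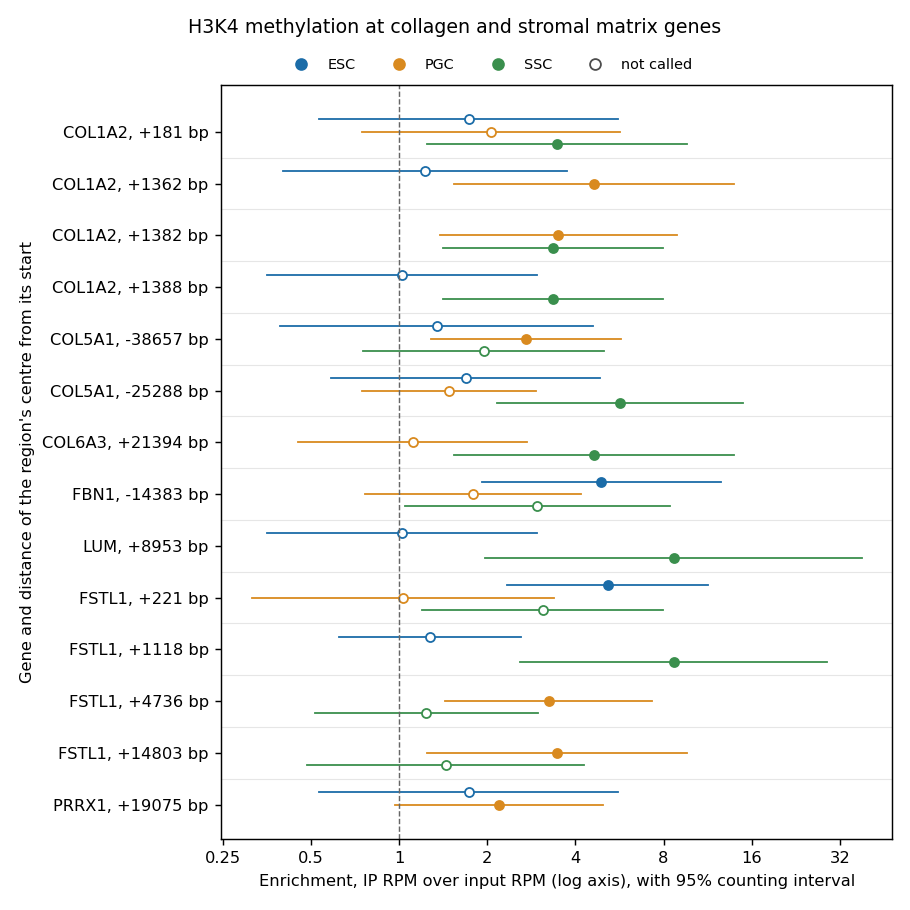
Enrichment (IP reads per megaread, RPM, over input RPM, log axis) at the 14 distinct pairs of coordinates, with 95% counting intervals, for each population with a listed value; filled points are populations in which the region was called. Called points lie between 2.19 and 8.66 and points not called between 1.02 and 3.09.

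COL1A2 was the only member with a place called in more than 1 population. That place lay about 1.4 kb downstream of the start, inside the first intron (chromosome 2, 23703252 to 23703561 on the build galGal4), in a gene that spans 23702024 to 23740814 on the plus strand. In the table of PGC against SSC PGC had 16 IP and 5 input reads and SSC had 18 and 6. The enrichments of 3.50 (1.38 to 8.87) in PGC and 3.36 (1.41 to 7.98) in SSC gave a log2 ratio of 0.06 (-1.78 to 1.89). The levels were close, and the interval is wide enough to hold a 3-fold difference in either direction. The part of this place called in PGC (23703252 to 23703521) had 14 IP reads over 3 of input in PGC, and 7 over 4 in ESC. Its enrichment was 4.63 in PGC and 1.23 in ESC, a log2 ratio of ESC over PGC of -1.92 (-4.18 to 0.35). The part called in SSC (23703264 to 23703561) had 18 IP reads over 6 of input in SSC, and 7 over 5 in ESC. This gave a log2 ratio of ESC over SSC of -1.72 (-3.69 to 0.26). ESC had the lower value in both tables, with intervals that included 0.

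The start of COL1A2 itself, from exon 1 into the first intron (chromosome 2, 23702069 to 23702341), was called in SSC alone. IP and input reads were 8 and 3 for ESC, 9 and 5 for PGC, and 13 and 4 for SSC. The enrichments were 1.73 (0.53 to 5.60), 2.06 (0.75 to 5.66) and 3.46 (1.25 to 9.61). SSC ranked first, PGC second and ESC last, and no pair differed beyond counting error. The log2 ratio was -1.01 (-3.25 to 1.24) for ESC against SSC, -0.75 (-2.83 to 1.32) for PGC against SSC and -0.25 (-2.49 to 1.99) for ESC against PGC, the last taken across tables.

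FSTL1 had 4 places, each called in 1 population, and the calling population changed along the gene. ESC was called at the start, SSC about 1.1 kb downstream, and PGC at 4.7 kb and 14.8 kb, all within the first intron or at its edge. The gene spans 79303743 to 79343999 on the plus strand of chromosome 1. The start region (79303745 to 79304184, from the 5′ UTR into the first intron) had 46 IP reads over 6 of input in ESC, 4 over 5 in PGC and 14 over 5 in SSC. Its enrichment was 5.15 (2.33 to 11.4) in ESC, 3.09 (1.20 to 7.97) in SSC and 1.03 (0.31 to 3.37) in PGC. ESC, the called population, was above PGC, with a log2 ratio of 2.32 (0.26 to 4.38). All regions called in ESC only had a median of 1.88 in that comparison, and centred on it the ratio was 0.44. ESC over SSC gave 0.74 (-1.05 to 2.52) and, across tables, PGC over SSC gave -1.59 (-3.78 to 0.60). SSC was not called there, although its interval lay above 1.

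The next FSTL1 region (79304691 to 79305032, 1118 bp downstream) had 20 IP reads over 2 of input in SSC, and 19 over 11 in ESC. The enrichment was 8.66 (2.58 to 29.02) in SSC and 1.28 (0.62 to 2.61) in ESC, a log2 ratio of -2.76 (-4.79 to -0.73). Between IP libraries alone the log2 ratio was -0.51, so most of this difference came from the input reads, 2 in SSC and 11 in ESC. The region was not listed for PGC against SSC.

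In PGC, the FSTL1 regions at 4736 bp (79308326 to 79308632) and 14803 bp (79318445 to 79318647) had 20 IP reads over 7 of input and 13 over 4. SSC had 9 over 9 at the nearer region and 6 over 5 at the farther one. The enrichments in PGC were 3.24 (1.44 to 7.31) and 3.46 (1.24 to 9.60), and those in SSC 1.24 and 1.44. The log2 ratios of 1.39 (-0.34 to 3.12) and 1.26 (-0.89 to 3.42) favoured PGC, with intervals that included 0.

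**Figure D2:**
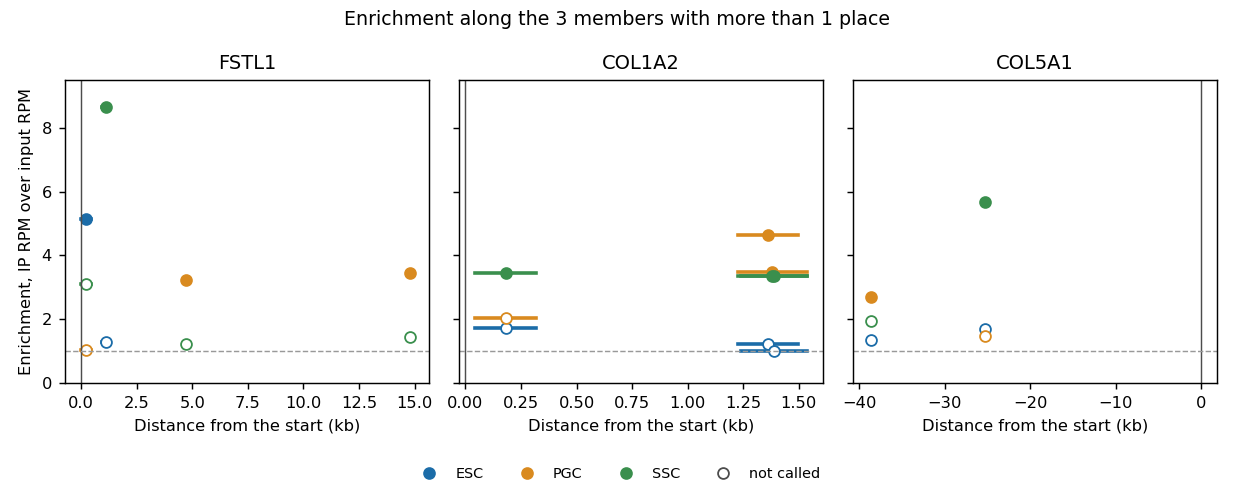
Enrichment (IP RPM over input RPM) against distance from the start in kb for FSTL1, COL1A2 and COL5A1; horizontal bars show the width of each region and filled points a call in that population. Along FSTL1 the called values are ESC at 5.15, SSC at 8.66 and PGC at 3.24 and 3.46, and not every population has a listed value at each region. In COL1A2 near 1.4 kb, the shared region has PGC at 3.50 and SSC at 3.36, and the part called in PGC has PGC at 4.63.

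Where a gene had 2 regions in 1 table, their log2 ratios were compared with each other. The 2 FSTL1 regions in ESC against SSC differed most among the 5 such pairs, by 3.50 (0.80 to 6.20). The start was called in ESC only and the region at 1118 bp in SSC only, and these opposite calls set the direction of the difference. All regions called in ESC only had a median of 1.20 and those called in SSC only -1.27. The pair upstream of COL5A1 in PGC against SSC, also with opposite calls, differed by -2.42 (-4.86 to 0.02). The pairs of COL1A2 and the PGC-called pair of FSTL1 differed by between -0.81 and 0.71.

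COL5A1 had 2 places, both upstream of the gene and called in different populations. As at FSTL1, a call in only 1 population of a pair is the usual case over all regions. The gene spans 7462510 to 7561096 on the plus strand of chromosome 17. The farther place, 38657 bp upstream (7423712 to 7423994), was called in PGC. ESC had 6 IP reads over 3 of input, PGC 21 over 9 and SSC 10 over 6. PGC stood highest at 2.72 (1.29 to 5.73), followed by SSC at 1.94 and ESC at 1.34. The log2 ratios were -1.02 (-3.09 to 1.06) for ESC against PGC, 0.48 (-1.26 to 2.22) for PGC against SSC and, across tables, -0.53 (-2.77 to 1.70) for ESC against SSC, so the order was within counting error.

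The nearer COL5A1 place, 25288 bp upstream (7437035 to 7437409), was called in SSC. Here ESC had 10 IP reads over 4 of input, PGC 17 over 14 and SSC 22 over 4. SSC stood highest at 5.69 (2.16 to 15.0), while ESC had 1.69 and PGC 1.48. SSC, the called population, was above PGC, with a log2 ratio of PGC over SSC of -1.94 (-3.65 to -0.23). All regions called in SSC only had a median of -1.37 in that comparison, and centred on it the ratio was -0.58. The ratio of ESC over SSC was -1.75 (-3.82 to 0.31), and that of ESC over PGC, across tables, 0.19 (-1.63 to 2.005). Between the IP libraries of PGC and SSC alone the ratio was -0.43, as PGC had 14 input reads here.

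COL6A3 and LUM were each listed in 1 table, in both cases with a region called in SSC inside the gene. The COL6A3 region began in exon 7 and ended in intron 7 (chromosome 7, 4774110 to 4774341), 21394 bp from the start. SSC had 14 IP reads over 3 of input, and PGC 8 over 9. The enrichment was 4.64 (1.54 to 13.97) in SSC and 1.11 (0.45 to 2.73) in PGC, and the log2 ratio of PGC over SSC was -2.06 (-4.12 to -0.01). Between IP libraries alone it was -0.82.

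The LUM region lay in the last intron (chromosome 1, 43863807 to 43864021), 8953 bp from the start, in a gene on the minus strand. SSC had 13 IP reads over 1 of input, and ESC 7 over 5. The enrichment was 8.66 (1.97 to 38.1) in SSC and 1.02 (0.35 to 2.95) in ESC. The log2 ratio of ESC over SSC was -3.08 (-5.71 to -0.45), the largest among the members, and rested on a single input read in SSC. Between IP libraries alone it was -1.25.

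FBN1 was the other member with a call in ESC, 14383 bp upstream of its start (chromosome 10, 9819409 to 9819737). The region had 31 IP reads over 4 of input in ESC, 12 over 8 in PGC and 11 over 4 in SSC. The enrichment was 4.91 (1.91 to 12.6) in ESC, 2.97 (1.05 to 8.42) in SSC and 1.78 (0.76 to 4.17) in PGC. The log2 ratios were 1.46 (-0.37 to 3.29) for ESC against PGC, 0.73 (-1.30 to 2.75) for ESC against SSC and, across tables, -0.74 (-2.68 to 1.21) for PGC against SSC. The order of ESC, SSC and PGC was that of the FSTL1 start, and no pair in it differed beyond counting error.

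PRRX1 had the called region with the lowest enrichment over input, though not with the lowest IP signal per kilobase (3.89 RPM per kb). It lay in the first intron, 19075 bp from the start (chromosome 8, 4830560 to 4830763), and was called in PGC. PGC had 15 IP reads over 8 of input, and ESC 8 over 3. The enrichment was 2.19 (0.97 to 4.97) in PGC and 1.73 (0.53 to 5.60) in ESC, with a log2 ratio of ESC over PGC of -0.35 (-2.41 to 1.72). It was the only called value among the members whose interval reached below 1.

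Per kilobase, the called IP signal was similar across members. It ran from 2.69 RPM per kb at the COL1A2 start in SSC to 4.11 RPM per kb at the FSTL1 start in ESC. In populations without a call it ran from 0.56 RPM per kb (FSTL1 start in PGC) to 2.38 RPM per kb (COL5A1, 25288 bp upstream, in PGC). A call itself rests on IP reads, so the gap between the ranges goes with the calls. The same ranges over all regions were not computed.

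The member counts and medians are set here against all listed regions. For ESC against SSC, 5 of 7 member regions were at least 2-fold higher in SSC, where 26.3% of all regions were, and 0 of 7 were higher in ESC, where 35.1% were. The interval also excluded 0 at 2 of the 7 member regions (FSTL1 and LUM), beside 4.83% of all regions. The median log2 ratio was -1.72 over the members and 0.31 over all regions. The call itself goes with the direction: 5 of 7 members were called in SSC only, beside 38.3% of all regions, and all regions called in SSC only had a median of -1.27.

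For ESC against PGC, ESC was at least 2-fold higher at 2 of 5 member regions (FSTL1 and FBN1) and PGC at 2 (COL1A2 and COL5A1), beside 48.4% and 23.5% of all regions. The interval excluded 0 at FSTL1 in favour of ESC, beside 23.7% of all regions, and at 0 regions in favour of PGC, beside 2.1%. The median was -0.35 over the members and 0.90 over all regions. For PGC against SSC, 2 of 7 were higher in PGC (both in FSTL1) and 2 in SSC (COL5A1 and COL6A3), beside 21.2% and 37.8%. The interval excluded 0 at the 2 regions higher in SSC, beside 9.58%, and at 0 in favour of PGC, beside 1.8%. The median was 0.06 over the members and -0.42 over all regions, but -0.59 with counts summed per gene, and -1.35 at the region nearest the start of 4 genes, beside -0.49 over all genes with a symbol. With so few regions, these shares lie near the background for PGC against SSC. The comparisons share libraries, so they are not separate evidence.

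**Figure D3:**
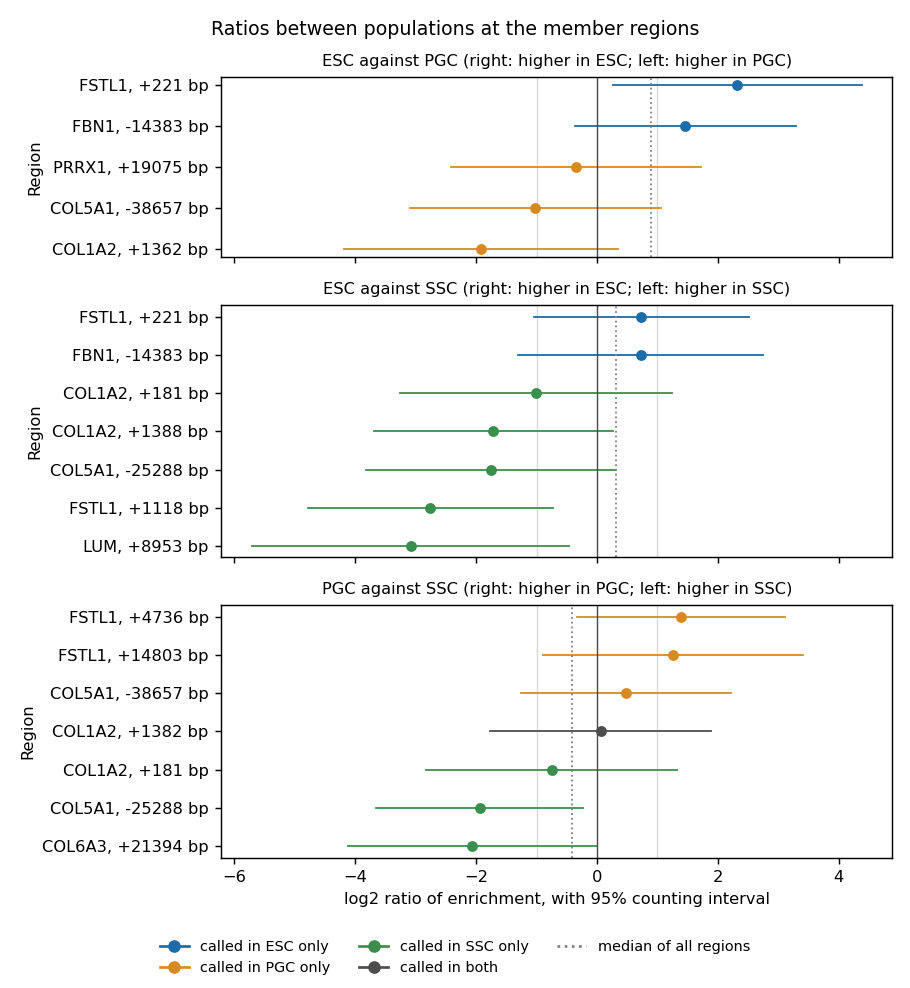
Log2 ratio of enrichment (first population over second) at each member region, with 95% counting intervals, coloured by the population in which the region was called; the dotted line is the median of all distinct regions of the table. In ESC against SSC the 5 regions called in SSC lie between -3.08 and -1.01, left of the dotted line at 0.31.

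Inputs had a large part in these ratios. Of the 13 values at least 2-fold apart, all 13 kept their direction between IP libraries alone, and 7 remained at least 2-fold. For PGC against SSC none of the 4 did, with values between -0.82 and 0.99. Each of the 13 regions was called only in the population with the higher enrichment. A call rests on IP reads, so the kept direction goes with the call and is not separate support.

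**Figure D4:**
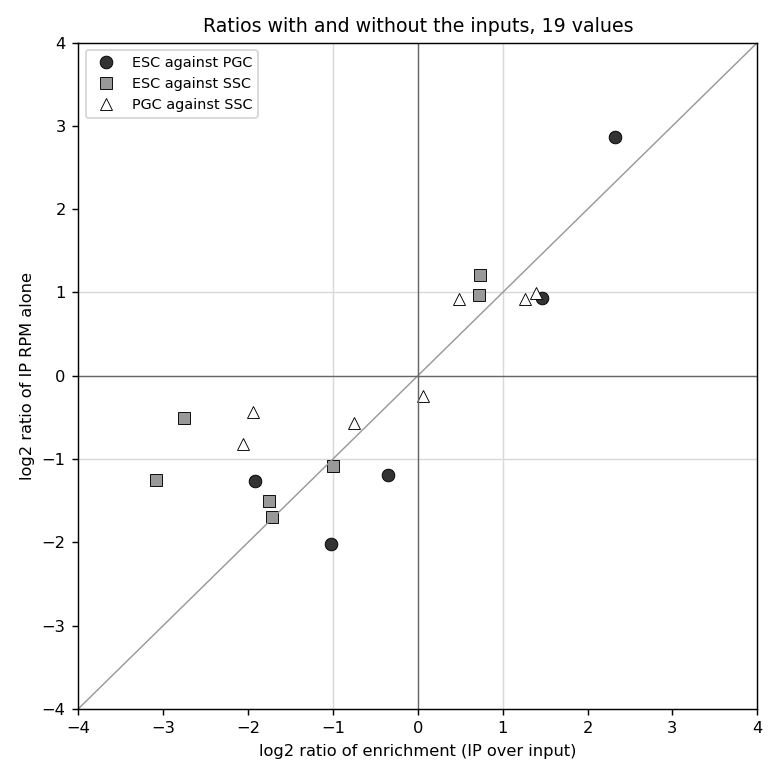
Log2 ratio of IP RPM alone (y axis) against log2 ratio of enrichment over input (x axis) for the 19 entries; the diagonal marks equal values and grey lines mark 2-fold. The FSTL1 region at 1118 bp moves from -2.76 to -0.51 and the LUM region from -3.08 to -1.25.

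Beyond the 7 members, 185 further gene symbols were looked up, each at its region nearest the start. A few genes are among them under both an older and a newer name, such as CYR61 and CCN1. The symbols cover collagens, proteoglycans, microfibrils, matrix glycoproteins, matrix enzymes, mesenchymal transcription factors and stromal receptors. For ESC against SSC, 26 were listed, of which 16 were at least 2-fold higher in SSC and 3 in ESC, beside 22.8% and 39.5% of all genes with a symbol. Their median log2 ratio was -1.27, compared with 0.59 over all genes. The call goes with the direction here too. In each list with a listed gene, more genes were called in SSC only than in ESC only. Of all genes, 833 were called in SSC only and 1568 in ESC only. All regions called in SSC only also had a median of -1.27. For PGC against SSC, 37 were listed, 13 at least 2-fold higher in SSC and 6 in PGC, beside 39.8% and 20.9%, with a median of -0.59 compared with -0.49. For ESC against PGC, 17 were listed, 8 at least 2-fold higher in PGC and 3 in ESC, beside 20.3% and 53.1%, with a median of -0.42 compared with 1.16. More of them were called in PGC only than in ESC only in each list with a listed gene except the proteoglycans (2 and 2). Of all genes, 838 were called in PGC only and 1427 in ESC only. The microfibril list, 20 genes, had no listed gene in any table.

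Among these lists, mesenchymal transcription factors had the most genes whose interval excluded 0 in ESC against SSC. All 6 listed of 31 were called in SSC, 5 of them were at least 2-fold higher there, and the interval excluded 0 for 4, beside 4.09% of all genes in favour of SSC. Only 833 of the 2593 genes behind that share were called in SSC only, so the shares are not like for like. The SSC calls of the 6 go with their direction. OSR1, a regulator of intermediate and lateral mesoderm, had -2.09 (-3.67 to -0.52) and the nuclear factor gene NFIB -1.72 (-3.11 to -0.32). The homeobox gene MEOX2 had -1.56 (-2.97 to -0.16) and EBF1, a helix-loop-helix factor of stromal and B cells, had -1.55 (-2.94 to -0.16). For PGC against SSC, EBF1 had -2.12 (-3.55 to -0.69), and OSR1, at a region 178976 bp away, had -2.52 (-4.83 to -0.21). These 2 of the 7 listed stood beside 9.35% of all genes, and 5 of the 7 were called in SSC only, beside 1120 of 2065 of all genes.

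Among the collagens, 2 of 28 were listed for ESC against SSC. COL12A1, a collagen on the surface of fibres, had 15 IP reads over 0 of input in SSC, and 8 over 4 in ESC, 77542 bp from its start. Its log2 ratio was -3.84 (-7.16 to -0.53), and -2.26 with 3 reads in place of the 1 added to that input. Among stromal receptors, PDGFRA, a growth factor receptor of mesenchymal cells, had 60 IP reads over 20 of input in SSC, and 58 over 33 in ESC. Its log2 ratio was -1.43 (-2.37 to -0.49). Between IP libraries alone it was -0.49.

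The laminin chain gene LAMB1 went in both directions. A region 6747 bp upstream was called in ESC, with a log2 ratio of ESC over PGC of 3.17 (0.90 to 5.44). A region 5183 bp upstream was called in SSC, with -3.18 (-5.80 to -0.56) for ESC against SSC and -3.06 (-5.56 to -0.57) for PGC against SSC. SSC had 14 IP reads over 1 of input there, and between IP libraries alone the ratios were -1.35 and -0.82. GPC4, a glypican of the cell surface, was higher in ESC, with 1.35 (0.20 to 2.50) against PGC and 1.77 (0.58 to 2.95) against SSC. Of the matrix enzymes, LOXL2, which crosslinks collagen, had -2.86 (-5.29 to -0.44) for PGC against SSC. This rested on 1 input read in SSC, and was -0.77 between IP libraries alone. P4HA1, a subunit of the collagen prolyl hydroxylase, had -2.003 (-3.79 to -0.21), or -1.08 between IP libraries alone.

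Markers of the somatic gonad ran the same way as the members for ESC against SSC. For ESC against SSC, 7 of 11 were listed, all called in SSC, and 6 were at least 2-fold higher there, beside 22.8% of all genes. The call goes with the direction, and 833 of 2593 of all genes were called in SSC only. Summed over the 7 regions, all listed through an SSC call, the IP signal was 4.88 RPM in ESC and 13.995 RPM in SSC. The inputs were 2.81 and 2.49 RPM. AMH, DHH, SOX9 and FSHR were not listed. For PGC against SSC, 8 of 11 were listed and 6 were at least 2-fold higher in SSC, where 39.8% of all genes were. Of the 8, 7 were called in SSC only, beside 1120 of 2065 of all genes. The sums over the 8 were 12.9 RPM in the PGC IP and 38.8 RPM in the SSC IP, over inputs of 8.17 and 5.74 RPM. Without GATA4, left out after its values were seen because it alone had 396 of the SSC IP reads, the IP sums were 6.62 and 18.1 RPM. For ESC against PGC, 3 of 11 were listed, all called in PGC only, beside 838 of 2270 of all genes. Of the 3, 2 were at least 2-fold higher in PGC, beside 20.3% of all genes, and the interval excluded 0 for 0 of them. Their sums were 1.27 RPM in the ESC IP and 2.87 RPM in the PGC IP. The larger sums lie with the populations whose calls listed these regions, so they are not separate support for a direction. The part of somatic cells in the values of the members was not tested, and in such bulk libraries fewer cells of a type and less signal per cell cannot be told apart. None of the 7 muscle and pericyte markers was listed in any table. Of 8 blood and endothelial markers, 1, 2 and 1 were listed in the 3 tables, and they did not run 1 way. GATA2 was called in ESC, at 1.65 (0.17 to 3.12) against SSC and, at another region, 1.17 (-0.84 to 3.19) against PGC. TAL1 was called in SSC, at -0.15 (-2.32 to 2.02) for ESC against SSC. RUNX1 was called in PGC, at -0.14 (-2.43 to 2.16) for PGC against SSC.

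**Figure D5:**
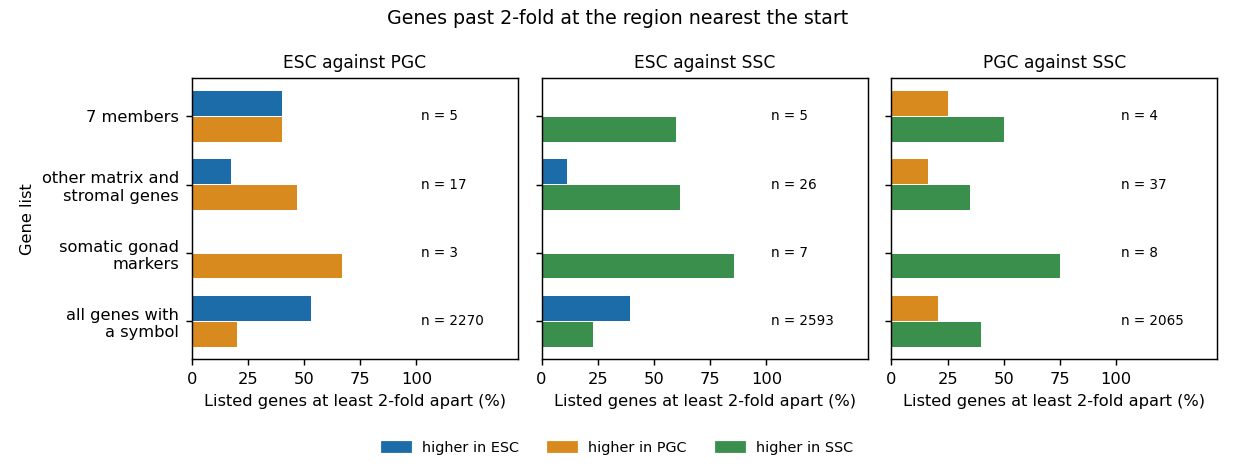
Percentage of listed genes at least 2-fold apart at the region nearest the start, for the members, the other matrix and stromal genes, the somatic gonad markers and all genes with a symbol; n is the number of listed genes. In ESC against SSC the bars for SSC are longer than those for ESC in every list except all genes, where 22.8% were higher in SSC and 39.5% in ESC. The direction goes with the population in which the listed regions were called.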

How the data were processed

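Per the submitters' processing notes, CASAVA 1.8, FastQC, BWA and MACS2 were used with the build galGal4. Their settings and the counting of reads in regions are not given in the sources used here. The authors deposited 3 tables, each on 2 populations, with read counts for 4 libraries per the file headers. Their deposited RPM is the count plus 1 over the library total in megareads. Fold enrichment, per the file headers, divides IP RPM by input RPM, and the authors' log2 values compare these enrichments between populations. Ratios recomputed from the counts differed from it by at most 6.86e-06. Whether coordinates count from 0 or 1 is not stated, and the values are printed as deposited. Distances run from a region's centre to the closest start.

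Repeated entries of a region (90, 152 and 55) were collapsed for values over all regions. Intervals used the delta method on the 4 counts plus 1, and were checked on simulated counts. No peak call was applied to the simulated counts, so the check does not cover the choice of regions by their calls. No test was possible with 1 library of each kind per population, so a region was called different at 2-fold. PCR reads are not independent molecules, so intervals cover counting error only. A further matrix or stromal gene was named where its interval at the region nearest the start excluded 0, up to 4 per list and comparison. Cell type markers did not follow this rule. Some were named with an interval that included 0, and some whose interval excluded 0 were only counted. Members and lists were chosen with earlier results of these data known. RefSeq listed all 7 symbols on the same chromosomes. Python 3.11.15, pandas 2.3.3 and scipy 1.17.1 were used.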

Additional observations from a re-analysis of the deposited data

Results flagged for a closer look

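Regions inside FSTL1 and FBN1 whose closest start belongs to a neighbouring gene without a symbol were outside the members. The 4 such regions were each listed through a peak call, and every listed region had an IP signal above its input. In FSTL1, a region in intron 5 (79337958 to 79338269) was enriched 2.83-fold (1.16 to 6.87) in SSC, and another in intron 8 (79341591 to 79341861) 3.30-fold (1.29 to 8.43) in SSC. The ESC library, not called at the intron 8 region, stood at 4.98 (1.12 to 22.1) there with 12 IP reads and 1 input read. A second intron 5 region (79338761 to 79338982) was enriched 2.64-fold (1.08 to 6.49) in PGC. In FBN1, a region in the last intron (chromosome 10, 9674336 to 9674677) was enriched 4.53-fold (1.84 to 11.2) in SSC. It had a log2 ratio of PGC over SSC of -1.88 (-3.54 to -0.22). The ratios of the FSTL1 regions between populations had intervals that included 0.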

How the results depend on the processing

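No paired analysis was possible because each population has 1 IP and 1 input library. No library could be left out for the same reason, and no member region had an input of 0 reads to set to the floor. Of 76 alternative values at single member regions, 72 stayed within the counting interval without a reversal of a 2-fold difference. This is a weak check, because the intervals are wide, with standard errors of 0.87 to 1.34. Centring on all regions moved values only by the medians 0.90, 0.31 and -0.42. Those values could neither leave the interval nor reverse a 2-fold difference. The FSTL1 region at 1118 bp moved to -0.51 without inputs. Centred on regions called the same way, 3 values past 2-fold reversed: COL5A1 at 38657 bp (0.048) and FBN1 (-0.42) in ESC against PGC, and COL1A2 at 181 bp (0.26) in ESC against SSC. Another 5 values under 2-fold also changed sign, to between -0.48 and 0.72. The cause was not tested.

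Counts of 2-fold regions are small and moved by single regions. For ESC against PGC, regions higher in ESC numbered 1 without inputs, with 5 reads added, after centring on all regions, at 3-fold and with an interval that excludes 0. Those higher in PGC numbered 1 at 3-fold and 0 by the interval. For ESC against SSC, regions higher in ESC numbered 2 at 1.5-fold and 1 without inputs. Those higher in SSC numbered 2 by the interval, and 3 genes with either the region nearest the start or summed counts. For PGC against SSC, regions higher in PGC numbered 0 at 3-fold, by the interval and without inputs. They numbered 1 with 5 reads added, with at least 20 IP reads, with the region nearest the start and with summed counts. Those higher in SSC numbered 0 without inputs and 1 with summed counts. At 3-fold, 3 other matrix genes were higher in PGC than in ESC, 6 higher in SSC than in ESC and 1 higher in PGC than in SSC. Within 1 kb of a start lay 2 places, within 2 kb 4 and within 5 kb 5. The places shared between tables did not change in number at 50% reciprocal overlap. The medians over the members stayed within the counting interval of the region at the median, which is again wide. For PGC against SSC the sign changed from 0.06 to -0.24 without inputs, -0.35 with at least 20 IP reads, -0.59 with summed counts and -1.35 with the region nearest the start.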
